A study of Gallus gallus with 24 samples.

Results

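Interleukin 1 (IL-1) cytokines and their receptors were followed at the RNA level in peripheral blood mononuclear cells (PBMCs) of chickens. The genes were taken by symbol from the gene column of the count tables. All 7 symbols sought were found, each on 1 entry, among 23910 genes, and all 7 were among the 20266 genes that had at least 2 reads over all libraries and were tested. They are IL1B (ENSGALG00000029940), IL1R1 (ENSGALG00000043044), IL1R2 (ENSGALG00000046326), IL1RAP (ENSGALG00000007253), IL1RL1 (ENSGALG00000016785), IL18 (ENSGALG00000007874) and IL18R1 (ENSGALG00000040621). PBMCs of 6 broiler chickens (Cobb500, 4 to 6 weeks of age) were held for 24 h with a vital strain of Bacillus subtilis (BS) or of Bacillus velezensis (BV), each at 3 bacteria per PBMC, with the T cell mitogen concanavalin A (conA) at 10 µg/ml, or in medium alone as the negative control. Each chicken gave 1 library per group, hence 6 libraries per group and 24 in all, and libraries with the same replicate number in the labels were taken to come from 1 chicken. Technical duplicates had been combined before sequencing, so that no error within a chicken can be given.

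IL1B and IL18 belong to the IL-1 family of cytokines, which are made as precursors without a classical secretion signal and are released as mature proteins after cleavage by inflammatory caspases in mammals. IL1R1 is the signalling receptor of IL-1 and needs the accessory chain IL1RAP, whereas IL1R2 binds IL-1 but lacks the cytoplasmic domain that signals and therefore acts as a decoy. IL18R1 binds IL-18 together with its accessory chain IL18RAP, and IL1RL1 is the receptor of IL-33 in mammals. All signalling receptors of the family pass the signal through MYD88 and IRAK kinases to NF-kB, and in blood IL1B is mainly known from monocytes and granulocytes.

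Total counts were between 12170873 and 31242160 reads per library (median 23952895), with the lowest in the BS library of chicken 5. The levels below are normalized counts, that is reads divided by a size factor of the library, and they are not corrected for gene length, so that levels are compared between libraries and not between genes. Genes of T cells (11 of 12 listed genes found, none at 0) summed to between 59178 and 82094 normalized counts over all libraries, so that T cell transcripts were plentiful in each. Thrombocytes, which are nucleated in birds and can enter PBMC preparations, were seen unevenly. The 9 of 11 listed thrombocyte genes found (none at 0) summed to between 33967 and 101051 normalized counts in the BS, BV and control libraries of chickens 1 and 2, and to between 904 and 4693 in those of chickens 3 to 6. In conA libraries the sum was 16348 in chicken 1, 2694 in chicken 2 and between 754.9 and 1095 in chickens 3 to 6. The libraries of chickens 1 and 2 also carry consecutive numbers in the labels (29 to 36), and the conA libraries of chickens 3 to 6 (57 to 60) are numbered apart from all others, so that results are also given for these sets of chickens where they differ.

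The plot of normalized counts per library shows the 7 genes side by side. IL1B and IL1R2 were highest with the bacteria, IL18 and IL18R1 were highest with conA, and IL1R1 and IL1RAP differed more between chickens than between groups.

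**Figure D1:**
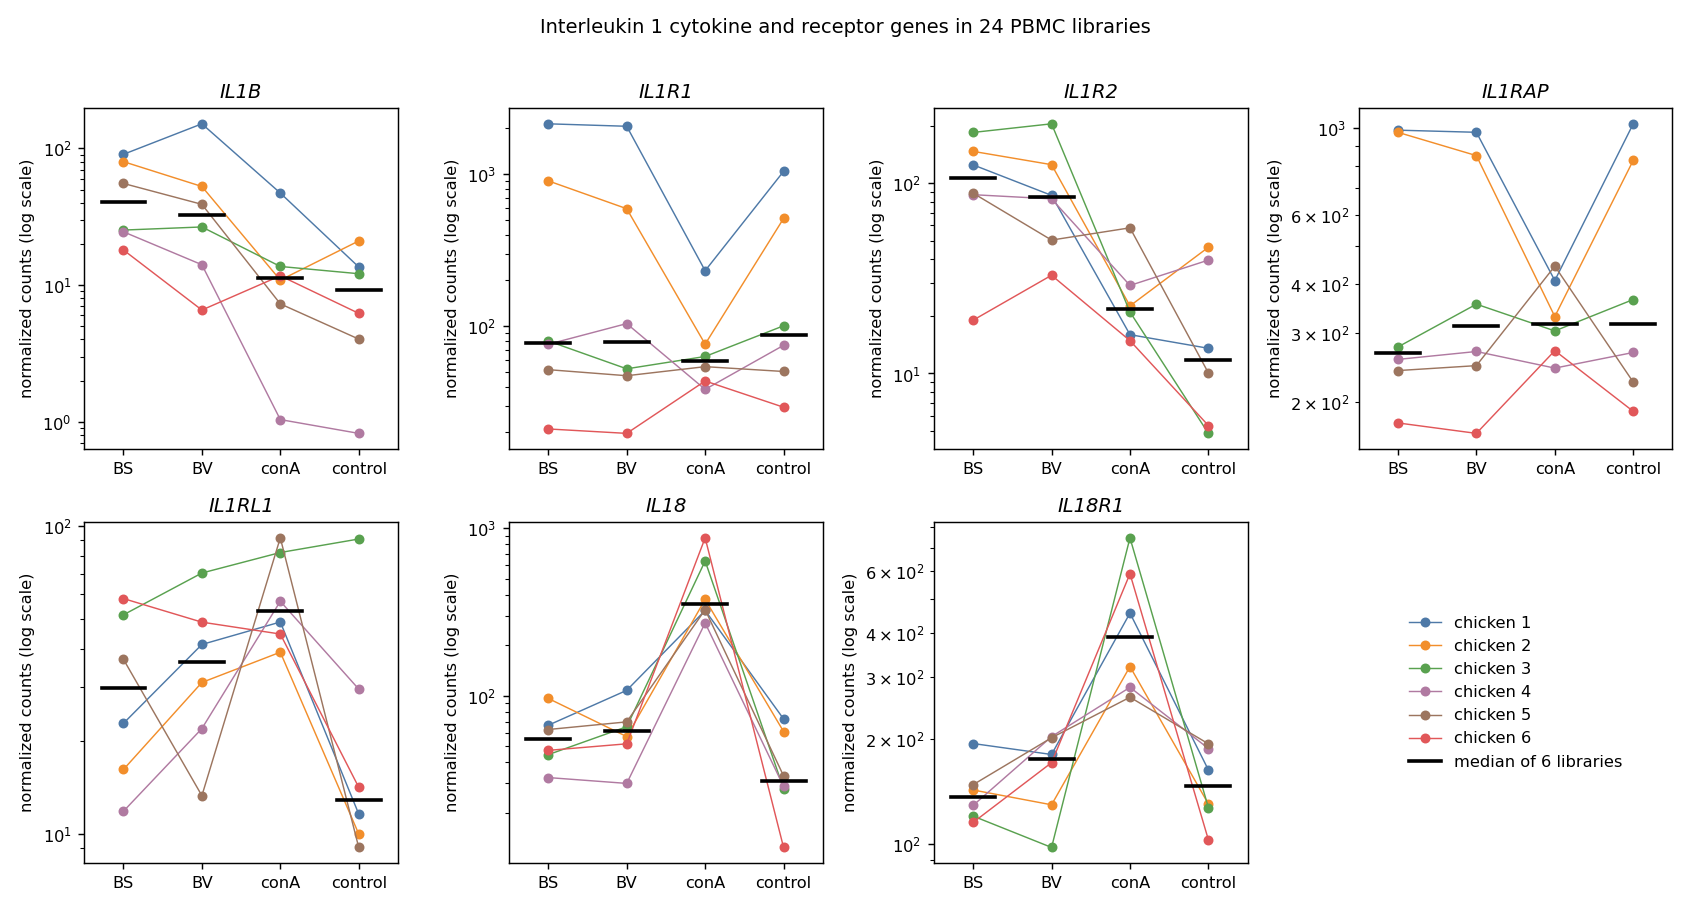
Normalized counts (log axis) of the 7 genes in BS, BV, conA and control libraries, with 1 point per library, lines joining the libraries of a chicken and black bars at the group medians. In IL18 and IL18R1 the 6 conA points lie above all control points, with medians of 351 against 30.99 for IL18 and 388 against 147 for IL18R1, whereas IL1R1 is set apart by chickens 1 and 2.

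Genes were tested with edgeR over all 20266 genes, and a gene was called at an adjusted p under 0.05 with an absolute log2 fold change (FC) above 1.5. Since cells of each chicken entered every group, a fit without a term for the chicken (the methods of the study name none) and a fit blocked on the chicken were read side by side. After BS, 0 of the 7 genes were called without the block (0.0% of all genes, 2 of 7 at an unadjusted p under 0.05, 1 of 7 with DESeq2) and 2 of 7 with it (0.178% of all genes). After BV, 0 of 7 were called without the block (0.0% of all genes, 2 of 7 at an unadjusted p under 0.05, 0 of 7 with DESeq2) and 2 of 7 with it (0.138% of all genes). The study, with an earlier version of DESeq2 and the same thresholds, listed IL1R2 as higher after both strains. After conA, 2 of 7 were called without the block (0.873% of all genes) and 1 of 7 with it (2.42% of all genes). The median log2 FC of the 7 genes was 0.55 after BS, 0.65 after BV and 0.79 after conA in the fits without the block, beside medians over all genes tested of 0.00, -0.0048 and -0.03.

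**Figure D2:**
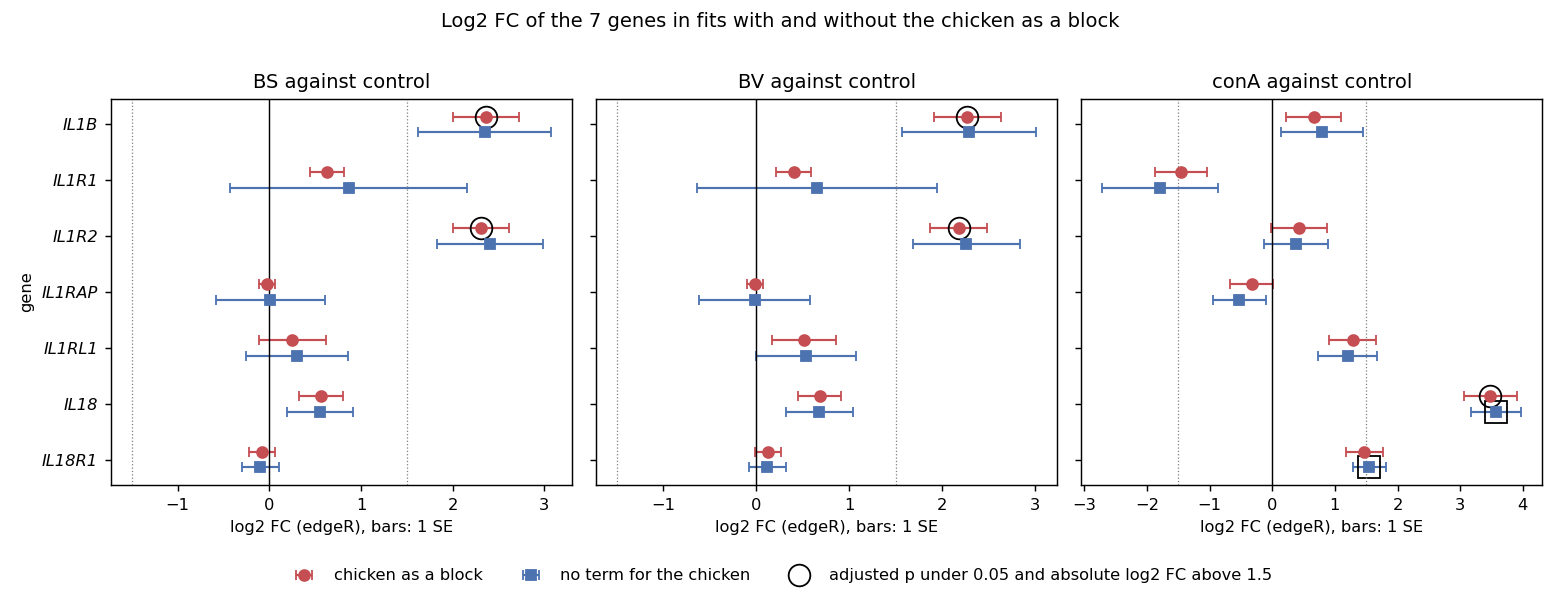
Log2 FC of the 7 genes (horizontal axis, bars show 1 SE) for BS, BV and conA against the control, in the edgeR fits with the chicken as a block (red circles) and without it (blue squares). Black outlines mark called genes, namely IL1B and IL1R2 after BS and BV with the block only, IL18 after conA in both fits and IL18R1 after conA without the block only.

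IL1B, the gene of IL-1 beta, was low in untreated PBMCs and higher with either strain. Its normalized counts were between 18.1 and 90.6 (median 40.3) in BS-treated PBMCs, between 6.57 and 151 (median 32.8) in BV-treated PBMCs and between 0.822 and 21.0 (median 9.16) in the control. The treated library exceeded the control library of the same chicken in all 6 chickens for BS and in all 6 for BV, although the groups overlapped. The share of all genes that were higher in 6 of 6 chickens was 2.57% after BS and 3.15% after BV. The within-chicken ratio to the control had a median of 5.24 after BS and 6.09 after BV, and it was only 1.06 in chicken 6 after BV. Counts behind these values were small, with 265 reads in the 6 BS libraries, 274 in the 6 BV libraries and 57 in the 6 control libraries, of which chicken 4 gave 1.

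The log2 FC of IL1B after BS was 2.35 (SE 0.72, edgeR adjusted p = 1) without the block and 2.37 (SE 0.36, adjusted p = 0.000255) with it, and over 23 alternatives the adjusted p was between 3.88e-06 and 1. After BV the log2 FC was 2.29 (SE 0.72, edgeR adjusted p = 1) without the block and 2.27 (SE 0.36, adjusted p = 0.000581) with it, with a range of 0.000221 to 1 over 23 alternatives. The change after BS stayed called in 6 of 6 blocked fits that left out 1 chicken. After BV it was called in 5 of 6, and without chicken 1 the log2 FC was 1.68 (adjusted p = 0.0723). In chickens 1 and 2 alone the blocked log2 FC was 2.30 after BS and 2.48 after BV, and in chickens 3 to 6 alone it was 2.45 and 1.95 (adjusted p = 0.0438 and 0.255). These fits within sets were chosen after seeing the data.

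With conA, IL1B had between 1.04 and 47.2 normalized counts (median 11.3) and was above the control in 5 of 6 chickens. The log2 FC of 0.79 (SE 0.65, edgeR adjusted p = 0.673) did not pass the test, and the groups overlapped over most of their range. Without chicken 1 the log2 FC was 0.0963 (0.0138 with the block) and without chicken 2 it was 1.30, and over 23 alternatives the adjusted p was between 0.295 and 1.

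Cell type markers were measured beside IL1B. Monocyte and macrophage genes (15 of 18 found, none at 0) summed to 1587 to 2780 normalized counts with BS, 1607 to 3101 with BV and 1611 to 3509 in the control, and BS libraries exceeded their control in 3 of 6 chickens (ratios 0.698 to 1.28) and BV libraries in 2 of 6 (0.832 to 1.33). Heterophil genes (5 of 15 found, none at 0) summed to 131 to 589 with BS, 166 to 616 with BV and 144 to 497 in the control, with ratios of 0.618 to 2.01 and 0.685 to 1.97. Erythroid genes (8 of 11 found) exceeded the control in 6 of 6 chickens with BS (ratios 1.06 to 2.88) and with BV (1.00 to 2.86), and so did B cell genes (8 of 10 found) after BS (1.02 to 1.33) and after BV (1.04 to 1.40). Thrombocyte genes (9 of 11 found, none at 0) exceeded the control in 1 of 6 chickens with BS (ratios 0.843 to 1.61) and in 1 of 6 with BV (0.770 to 1.31). Their sums set chickens 1 and 2 apart with BS, with BV and in the control, where IL1B was also higher in these chickens. The part of these cell types in the IL1B and IL1R2 results was not tested. In bulk samples, a change in the number of cells of a type and a change of RNA per cell cannot be told apart.

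IL18 was the member with the highest log2 FC after conA. It had between 272 and 875 normalized counts (median 351) in conA-treated PBMCs, between 32.5 and 96.2 (median 54.98) with BS, between 29.9 and 108 (median 61.1) with BV and between 12.4 and 72.7 (median 30.99) in the control. All conA libraries were above all other libraries. Chickens 1 and 2 were above chickens 3 to 6 in the control (61.1 to 72.7 against 12.4 to 33.2) and with BS (66.6 to 96.2 against 32.5 to 62.8). With BV and with conA these sets of chickens overlapped. The conA and control groups did not overlap, which held for 1.89% of all genes in this direction, and conA was higher in 6 of 6 chickens, as in 5.75% of all genes.

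IL18 rose after conA with a log2 FC of 3.57 (SE 0.40, edgeR adjusted p = 0.000184), and with the block it was 3.48 (adjusted p = 0.00263). It was called under all 23 alternatives, with adjusted p from 4.43e-19 to 0.0442. The size differed between chickens, with within-chicken ratios from 4.44 in chicken 1 to 70.4 in chicken 6, where the control library had the lowest value of all. In chickens 1 and 2 alone the log2 FC was 2.41 (adjusted p = 0.0442), and in chickens 3 to 6 alone it was 4.38 (adjusted p = 0.00105).

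With either strain IL18 exceeded the control in 5 of 6 chickens, with chicken 1 lower after BS and chicken 2 lower after BV. The log2 FC of 0.55 after BS (SE 0.36) and 0.68 after BV (SE 0.36) did not pass the edgeR test (adjusted p = 1 in both). With the block the adjusted p was 0.366 after BS and 0.20 after BV, and over 23 alternatives it stayed between 0.221 and 1 for BS and between 0.107 and 1 for BV.

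IL18R1, the IL-18 binding chain, was highest with conA like IL18. It had between 262 and 746 normalized counts (median 388) with conA, between 115 and 194 (median 136) with BS, between 97.9 and 203 (median 175) with BV and between 103 and 193 (median 147) in the control. All conA libraries were above all others, while BS, BV and control libraries shared 1 range. Of all genes, 1.89% had all conA libraries above all control libraries.

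IL18R1 rose after conA with a log2 FC of 1.55 (SE 0.26, edgeR adjusted p = 0.00254), close to the threshold of 1.5. With the block the log2 FC was 1.47 (adjusted p = 0.025), so that it passed the test but not the fold threshold. Over 23 alternatives the adjusted p was between 7.19e-07 and 0.183. Without chicken 3 the log2 FC was 1.30 and without chicken 6 it was 1.37, with adjusted p of 0.0115 and 0.0212. The log2 FC of IL18R1 after BS (-0.10, SE 0.20) and after BV (0.12, SE 0.20) were within 1 SE of 0 (adjusted p = 1 in both).

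IL18RAP, the accessory chain of the IL-18 receptor and not one of the 7 genes, had between 20 and 74 reads in conA libraries and between 2 and 13 in control libraries. It was higher with conA in 6 of 6 chickens, as were 5.75% of all genes. IL18RAP had 40.1 ± 20.9 normalized counts in conA-treated PBMCs and 6.29 ± 4.58 in the control (SD, n = 6 each). Its log2 FC was 2.60 (edgeR adjusted p = 0.00292, 0.00162 with the block). Hence both chains of the IL-18 receptor and the cytokine itself were higher with conA. Beside them, genes of proliferation (9 of 12 found) summed to 4489 to 6456 normalized counts with conA and 3425 to 4389 in the control, higher in 6 of 6 chickens (ratios 1.04 to 1.89), and T cell genes had ratios of 0.934 to 1.17. The part of cell composition in these results was not tested.

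IL1R2, the decoy receptor, showed the same order of groups as IL1B. It had between 19.1 and 185 normalized counts (median 107) with BS, between 32.8 and 205 (median 84.6) with BV, between 14.9 and 58.3 (median 21.9) with conA and between 4.84 and 46.1 (median 11.8) in the control. In chicken 3 it had 185 normalized counts with BS and 205 with BV against 4.84 in the control, which rests on 4 control reads, and in chicken 4 it had 87.1 and 82.8 against 39.4. IL1R2 was higher in 6 of 6 chickens after either strain, as were 2.57% of all genes after BS and 3.15% after BV, and the groups overlapped.

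The log2 FC of IL1R2 after BS was 2.41 (SE 0.58, edgeR adjusted p = 0.665) without the block and 2.31 (SE 0.31, adjusted p = 0.000151) with it, and over 23 alternatives the adjusted p was between 1.71e-08 and 1. After BV it was 2.26 (SE 0.57, edgeR adjusted p = 0.911) without the block and 2.17 (SE 0.31, adjusted p = 0.000421) with it, between 2.18e-07 and 1 over the alternatives. DESeq2 without a block gave adjusted p of 0.0159 for BS and 0.0541 for BV. In the blocked fits IL1R2 was called without any 1 chicken, in 6 of 6 fits after BS and in 6 of 6 after BV. It was also called in chickens 1 and 2 alone (log2 FC 2.21 and 1.83) and in chickens 3 to 6 alone (2.39 and 2.40), each with the block. These fits within sets were chosen after seeing the data. Of 20266 genes they called 62 and 23 in chickens 1 and 2, and 19 and 11 in chickens 3 to 6.

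With conA, IL1R2 exceeded the control in 4 of 6 chickens and was lower in chickens 2 and 4. The log2 FC of 0.38 (SE 0.51, edgeR adjusted p = 0.821) did not pass the test. The log2 FC was -0.59 in chickens 1 and 2 alone and 0.93 in chickens 3 to 6 alone, neither of which passed the test (adjusted p = 0.86 and 0.689).

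IL1R1, the signalling receptor, varied most between chickens. In chicken 1 it had 2143 normalized counts with BS, 2065 with BV, 232 with conA and 1043 in the control. In chicken 2 it had 903 with BS, 592 with BV, 76.1 with conA and 511 in the control. In chickens 3 to 6 it had 21.1 to 79.8 with BS, 19.7 to 104 with BV, 38.4 to 63.2 with conA and 29.3 to 101 in the control. Thus chickens 1 and 2, which had the highest thrombocyte sums, were above the others in every group, and the groups overlapped in the other 4. Other lists set these chickens apart too. In the control, B cell genes summed to 3671 to 4525 normalized counts in chickens 1 and 2 and 1798 to 2069 in the others. The B cell sums were also apart with BS (3745 to 4827 against 2197 to 2628) and BV (3821 to 4760 against 2221 to 2579). With conA they overlapped. Monocyte and heterophil sums were apart only in the control. T cell sums were lower in chickens 1 and 2, with 59178 to 69384 against 71725 to 81287 in the control. They were also apart with BS (60276 to 70682 against 73680 to 82094) and BV (59385 to 70599 against 72422 to 78791), and overlapped with conA.

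IL1R1 passed no test without the block. Its log2 FC was 0.86 after BS (SE 1.29, edgeR adjusted p = 1), 0.65 after BV (SE 1.29, adjusted p = 1) and -1.79 after conA (SE 0.93, adjusted p = 0.462). With the block the log2 FC after BS was 0.63 (adjusted p = 0.142), and it was 0.94 in chickens 1 and 2 alone (adjusted p = 0.0387) but -0.15 in chickens 3 to 6 alone (adjusted p = 0.968). After conA the blocked log2 FC was -1.46 (adjusted p = 0.0983), being -2.37 in chickens 1 and 2 alone (adjusted p = 0.000199) and -0.32 in chickens 3 to 6 alone (adjusted p = 0.832). Fits on chickens 1 and 2 alone rest on 2 chickens, and those with the block were chosen after seeing the data. There 1342 of 20266 genes had an adjusted p under 0.05 after BS and 1511 after conA. With all 6 chickens and the block these numbers were 210 and 1240. Whether these sets of chickens differ was not tested. Over 23 alternatives the adjusted p of IL1R1 was between 0.0349 and 1 after BS and between 0.000199 and 0.845 after conA.

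IL1RAP, the accessory chain shared by IL1R1 and IL1RL1, was also higher in chickens 1 and 2 with BS, with BV and in the control, but with conA the ranges of the sets overlapped. In chickens 1 and 2 it had 973 to 986 normalized counts with BS, 849 to 974 with BV, 330 to 408 with conA and 825 to 1023 in the control. In chickens 3 to 6 it had 177 to 276 with BS, 166 to 355 with BV, 244 to 443 with conA and 189 to 365 in the control. The strains left it close to the control, with blocked log2 FC of -0.03 after BS (SE 0.09, edgeR adjusted p = 0.958) and -0.01 after BV (SE 0.09, adjusted p = 0.997). After conA the log2 FC was -0.52 (SE 0.43, edgeR adjusted p = 0.679), with -1.30 in chickens 1 and 2 alone (adjusted p = 0.0999, 0.000677 with the block) and 0.29 in chickens 3 to 6 alone (adjusted p = 0.754). The blocked fit on chickens 1 and 2 rests on 2 chickens and was chosen after seeing the data. In it 1511 of 20266 genes had an adjusted p under 0.05. Over 23 alternatives the adjusted p of IL1RAP after conA was between 0.000677 and 0.975.

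IL1R1 and the sum of the thrombocyte genes were both highest in chickens 1 and 2, but within a chicken they did not always move together. In chicken 1, IL1R1 was 2143 with BS and 1043 in the control, while the thrombocyte sum was 85182 and 101051. In chicken 2, IL1R1 was 903 and 511, and the sum 33967.5 and 37389. In chickens 3, 5 and 6 both differed from the control in the same direction after BS, but some differences were slight. The sum of chicken 6 was 980.2 against 983.2, and IL1R1 of chicken 5 was 51.7 against 50.3. The BS, BV and control libraries of chickens 1 and 2 were above those of chickens 3 to 6 in 8 of the 9 thrombocyte genes, and conA libraries in 6 of 9. Per 1000 normalized counts of the thrombocyte list, IL1R1 had 14.9 to 26.6 with BS (median 21.5), 16.2 to 27.1 with BV (median 19.5), 14.2 to 57.7 with conA (median 46.6) and 10.3 to 29.8 in the control (median 19.7). On this scale IL1R1 exceeded the control in 3 of 6 chickens for BS, 3 of 6 for BV and 6 of 6 for conA. For BS these were chickens 1 (25.2 against 10.3), 2 (26.6 against 13.7) and 4 (17.8 against 15.9). IL1RAP spread more widely on this scale. It had 11.6 to 180 with BS, 12.4 to 184 with BV, 24.9 to 422 with conA and 10.1 to 192 in the control. Its scaled value exceeded the control in 3 of 6 chickens for BS, 4 of 6 for BV and 6 of 6 for conA. The thrombocyte sum itself was lower with conA than in the control in 5 of 6 chickens (ratios 0.072 to 1.05), and its part in the IL1R1 and IL1RAP results was not tested.

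**Figure D3:**
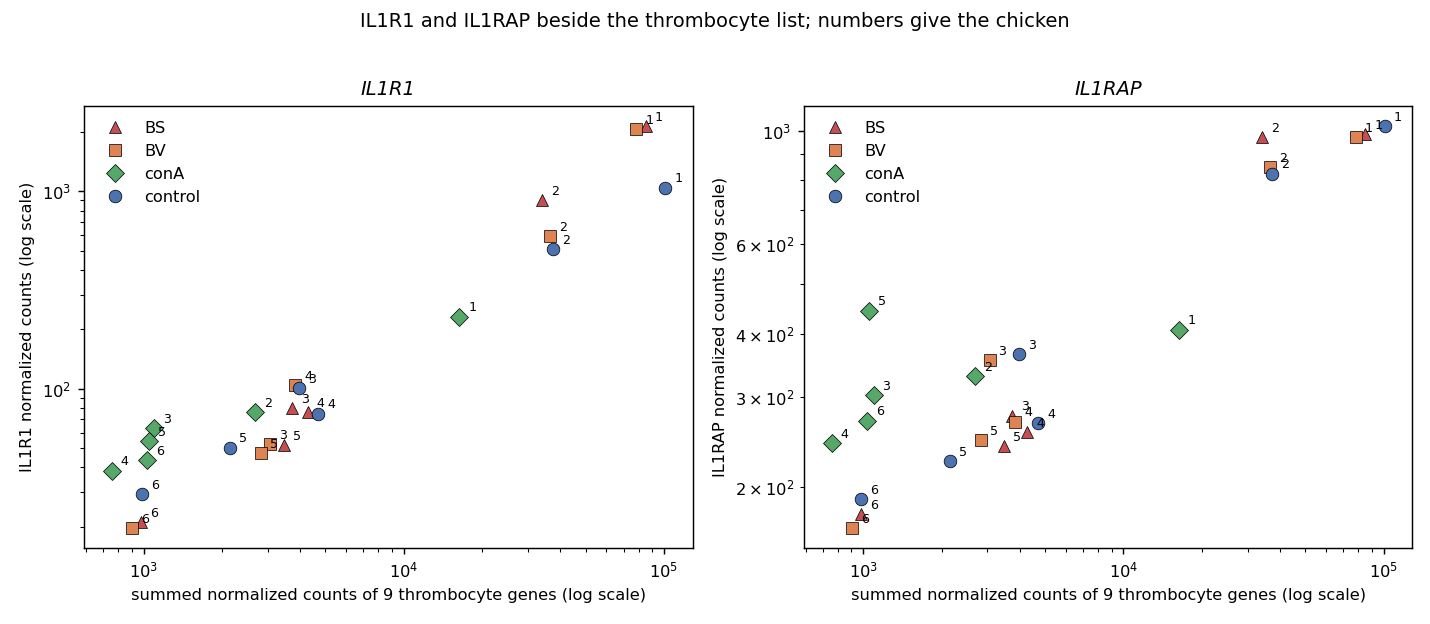
IL1R1 and IL1RAP (vertical axes, normalized counts) against the summed normalized counts of 9 thrombocyte genes (horizontal axes), all on log scales, with 1 symbol per BS, BV, conA or control library and the number of the chicken beside it. The BS, BV and control libraries of chickens 1 and 2 lie at the upper right, with IL1R1 between 511 and 2143, and the conA libraries of these chickens at 232 and 76.1.

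The balance of decoy and signalling receptor was read as IL1R2 reads per IL1R1 read within a library, which depth does not touch. This ratio of reads is not a ratio of molecules, since gene lengths were not used. It was between 0.0583 and 2.32 (median 1.03) with BS, between 0.0418 and 3.92 (median 0.931) with BV, between 0.0691 and 1.08 (median 0.337) with conA and between 0.013 and 0.527 (median 0.136) in the control. The treated library was above the control library of the same chicken in 6 of 6 chickens for each of BS, BV and conA, with median within-chicken folds of 4.73, 4.27 and 4.30. With the strains the numerator was the gene that differed in 6 of 6 chickens, whereas with conA neither gene did. With conA, IL1R2 was higher in 4 of 6 chickens and IL1R1 lower in 4 of 6. The thrombocyte sum was lower with conA in 5 of 6 chickens, and its part in this ratio was not tested. How often ratios of other genes are higher in 6 of 6 chickens was not counted.

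**Figure D4:**
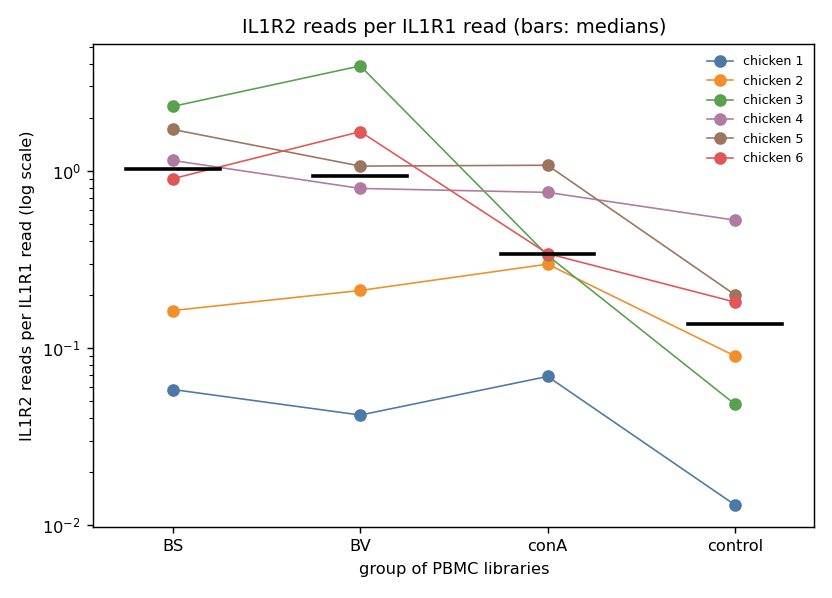
IL1R2 reads per IL1R1 read (log axis) in BS, BV, conA and control libraries, with 1 line per chicken and black bars at the group medians of 1.03, 0.931, 0.337 and 0.136. Every line ends at its lowest point in the control, and chicken 1 has the lowest ratio in every group.

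The ratio of decoy receptor to cytokine, IL1R2 reads per IL1B read, showed no such order. BS, BV and conA libraries each exceeded the control in 3 of 6 chickens, with median within-chicken folds of 1.04, 0.828 and 1.22. These ratios rest on few reads, with 1 IL1B read each in the control and conA libraries of chicken 4, so that an order could have been missed.

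IL1RL1 was low in all groups and higher with conA in 5 of 6 chickens. It had between 11.9 and 58.2 normalized counts (median 29.9) with BS, between 13.3 and 70.4 (median 36.2) with BV, between 38.97 and 91.6 (median 52.9) with conA and between 9.06 and 90.8 (median 12.9) in the control. The control library of chicken 3 had 90.8 and the next control library 29.6, and chicken 3 was the only one lower with conA. The log2 FC after conA was 1.21 (SE 0.47, edgeR adjusted p = 0.271) and 1.28 with the block (adjusted p = 0.0621), and over 23 alternatives the adjusted p was between 0.00429 and 0.575. Without chicken 3 it was 1.86 (adjusted p = 0.0258), which passed both thresholds. After BS (0.31, SE 0.56) and after BV (0.54, SE 0.54) IL1RL1 did not pass the test (adjusted p = 1 in both).

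In the RefSeq annotation of the assembly GRCg7b, 4 of the 7 genes are neighbours of each other in the order IL1R2, IL1R1, IL1RL1 and IL18R1, with IL1RL2 between IL1R1 and IL1RL1 and with IL18RAP next to IL18R1. IL1RL2 was not found under this name in the files. The calls differed along this row, as the plot of within-chicken ratios shows, but the differences between genes were not tested. After BS and BV, IL1R2 at the start of the row was called with the block, and IL1R1, IL1RL1 and IL18R1 were not. After conA, IL18R1 and IL18RAP at the end of the row passed the test, and IL1R2, IL1R1 and IL1RL1 did not. IL1RL1 was however higher with conA in 5 of 6 chickens and was called in 4 of 23 alternatives.

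**Figure D5:**
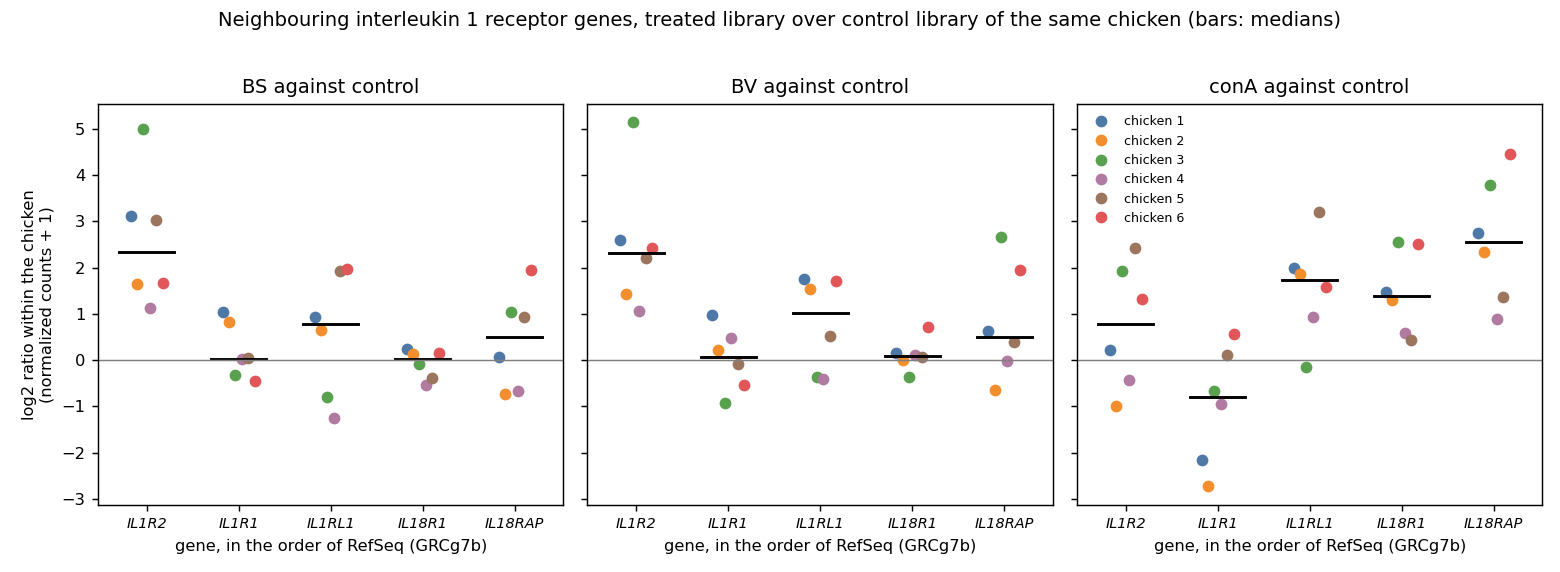
Log2 ratios of normalized counts + 1 (vertical axis) for BS, BV and conA libraries over the control library of the same chicken, for neighbouring receptor genes in RefSeq order without IL1RL2, with 1 point per chicken and bars at the medians. IL1R2 lies above 0 in 6 of 6 chickens after BS and BV, and IL18R1 and IL18RAP lie above 0 in 6 of 6 after conA.

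Between the strains, 0 of the 7 genes were called with or without the block (0.0% of all genes in both), 0 had an unadjusted p under 0.05 in edgeR, and DESeq2 called 0. The blocked log2 FC of BS over BV were between -0.26 for IL1RL1 (SE 0.34) and 0.23 for IL1R1 (SE 0.18), with 0.10 for IL1B (SE 0.26) and 0.13 for IL1R2 (SE 0.22). With 6 chickens and adjustment over all genes tested, a difference well above these errors could also have been missed.

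Between conA and BS, 3 of the 7 genes were called without the block (0.972% of all genes) and 4 with it (2.91% of all genes). IL18 had a log2 FC of 3.03 (SE 0.33, edgeR adjusted p = 4.33e-06) and IL18R1 of 1.65 (SE 0.24, adjusted p = 0.000128), and in both the 6 conA libraries were above the 6 BS libraries, as in 2.22% of all genes (2.09% for conA above BV). IL1R2 fell with conA relative to BS, with a log2 FC of -2.02 (SE 0.50, edgeR adjusted p = 0.0269), and was lower in 6 of 6 chickens, as were 5.4% of all genes. It was called in only 2 of 6 unblocked fits that left out 1 chicken (without chicken 5 and without chicken 6), with adjusted p up to 0.155, but in 6 of 6 with the block. IL1B was lower in 6 of 6 chickens too and was called only with the block (log2 FC -1.71, SE 0.35, adjusted p = 0.00209, against 0.331 without the block).

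Between conA and BV, 2 of the 7 genes were called without the block (0.878% of all genes) and 3 with it (2.69% of all genes). IL18 had a log2 FC of 2.91 (SE 0.32, edgeR adjusted p = 5.17e-06). IL1R2 had a log2 FC of -1.87 (SE 0.50, edgeR adjusted p = 0.0479), and its adjusted p was above 0.05 without chicken 1, 2, 3 or 4 (0.153 to 0.218), while with the block it was 0.000634. IL18R1 passed the test with a log2 FC of 1.44 (SE 0.24, edgeR adjusted p = 0.000491), under the fold threshold. IL1B was called with the block only (log2 FC -1.57, SE 0.35, adjusted p = 0.00427, against 0.392 without it). The comparisons with BS and with BV share the conA libraries.

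Genes around these members were taken from 4 lists. Of 12 other family genes, 4 were found under these names, and of these SIGIRR, IL1RAPL1 and IL1RAPL2 had at most 4 reads in any library, so that only IL18RAP (above) could be followed. Of 11 genes of cytokine processing 6 were found, and with conA CASP8, a caspase of the death receptor pathway that can also cleave IL-1 beta in mammals, rose to 1287 ± 234 normalized counts against 504 ± 57.6 in the control (SD, n = 6 each, log2 FC 1.36, edgeR adjusted p = 4.34e-06). P2RX7, the ATP-gated channel that promotes IL-1 beta release in mammals, had 15761 ± 2658 normalized counts with BV and 12882 ± 2334 in the control (SD, n = 6 each) and passed the test only with the block (log2 FC 0.30, adjusted p = 0.0024, against 1 without it). BS libraries had 14720 ± 1728 (SD, n = 6) and were higher in 5 of 6 chickens, with a blocked log2 FC of 0.20 (edgeR adjusted p = 0.0588).

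Of 24 genes of signal transduction 20 were found. In them 0 passed an adjusted p of 0.05 after BS or BV with or without the block. Of all 20266 genes, 210 passed after BS and 185 after BV with the block, and 0 and 1 without it. Hence 0 of 20 does not set this list apart from all genes. The list had a median log2 FC of -0.01 after BS and 0.02 after BV. After conA 2 of 20 were higher and 0 lower without the block (2.2% and 0.138% of all genes). With the block 3 of 20 were higher and 0 lower (3.52% and 2.6% of all genes). The calls without the block were IRAK2, a kinase next to the receptor (log2 FC 0.46, edgeR adjusted p = 0.0111), and REL, an NF-kB subunit (log2 FC 0.49, edgeR adjusted p = 0.0204). The gene added with the block was NFKB2, another NF-kB subunit, named after its values were seen, with a log2 FC of 0.59 (edgeR adjusted p = 0.00378, against 0.0623 without the block). MYD88 itself was close to the control in all groups, with 1708 ± 163 normalized counts with BS, 1732 ± 129 with BV, 1717 ± 218 with conA and 1782 ± 140 in the control (SD, n = 6 each), and it is named here although it passed no test.

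Of 23 genes known to respond to IL-1, 21 were found on 22 entries. The list includes genes that the study reported on these libraries, so that its counts are no independent evidence. Without the block 0 of 22 passed an adjusted p of 0.05 after BS or BV (0.0% of all genes in the higher direction). With the block 9 of 22 were higher after BS and 9 after BV (0.641% and 0.602% of all genes), and none were lower. Of these, 7 were called after each strain, beside 0.178% of all genes after BS and 0.138% after BV. Apart from CSF3 (below), the largest blocked log2 FC were those of IL8L1, a CXC chemokine gene, with 79.7 ± 54.1 normalized counts with BS, 63.5 ± 34.9 with BV and 6.62 ± 7.76 in the control (SD, n = 6 each). IL8L1 had only 42 reads over the control libraries, with 0 to 20 per library. Its blocked log2 FC was 3.39 after BS (edgeR adjusted p = 0.00164, 0.136 without the block) and 3.16 after BV (0.00464, 0.485 without the block). CSF3, the granulocyte growth factor gene, had 79 reads over the BS libraries, 59 over the BV libraries and 2 over the control libraries, too few for a fold. It is nevertheless among the 7 called after each strain.

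Among the other named genes of the list, 1 entry of CCL4 (ENSGALG00000034478), a CC chemokine gene, had a blocked log2 FC of 2.83 after BS (edgeR adjusted p = 0.000962, 1 without the block) and 2.71 after BV (0.002, 1 without the block), being higher in 6 of 6 chickens with BS and in 5 of 6 with BV. This entry had only 29 reads over the control libraries. The other CCL4 entry (ENSGALG00000032717) had 846. Its blocked log2 FC was 1.06 after BS and 1.12 after BV (edgeR adjusted p = 0.00272 and 0.00149), under the fold threshold. ACOD1, which makes itaconate in activated macrophages, had 104 ± 72.1 normalized counts with BS and 27.0 ± 20.7 in the control (SD, n = 6 each) and a blocked log2 FC of 1.90 (edgeR adjusted p = 2.65e-05, 1 without the block). IL8 had 169 ± 69.9 with BV and 41.9 ± 35.3 in the control (SD, n = 6 each) and a blocked log2 FC of 1.94 (edgeR adjusted p = 0.0287, 0.911 without the block). With the block, ACOD1 and IL8 were called after the other strain too. The log2 FC was 1.54 for ACOD1 after BV (edgeR adjusted p = 0.000607) and 1.84 for IL8 after BS (0.0375). After conA 2 of 22 were higher and 0 lower without the block (2.2% and 0.138% of all genes) and likewise 2 and 0 with it (3.52% and 2.6% of all genes). In both fits these were TNFAIP3 and TRAF1, both regulators of NF-kB signalling, with log2 FC of 0.86 and 0.44 without the block (edgeR adjusted p = 0.00093 and 0.0359).

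The genes most like each member were sought over the 24 libraries after centring log2 normalized counts + 1 on the chicken, among the 13024 genes whose mean reached 10 normalized counts. These correlations describe libraries that share chickens and treatments and carry no test. IL1B was most like CD72 (r = 0.854), ENSGALG00000015461 (0.843) and DBNDD2 (0.818). IL1R2 was most like CD72AG (r = 0.907), CCL5 (0.882) and CCL4 (0.861, ENSGALG00000032717), of which CCL4 and CCL5 are chemokine genes.

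IL18 was most like MITF (r = 0.979), a transcription factor gene, followed by ENSGALG00000048674 (0.965) and CRTAM (0.962), a receptor gene of activated cytotoxic lymphocytes. IL18R1 was most like AHR (r = 0.957), the aryl hydrocarbon receptor gene, EIF5A2 (0.955) and EIF6 (0.952). IL1R1 was most like ENSGALG00000019077 (r = 0.940), ITGAV (0.934), an integrin chain, and PTPRJ (0.931), and IL1RAP most like GDA (0.948), RGS18 (0.930) and KIAA1671 (0.917). IL1RL1 was most like SH3KBP1 (r = 0.856), ENSGALG00000047664 (0.856) and CPSF2 (0.840). Among the 7 genes themselves the closest pairs were IL18 with IL18R1 (r = 0.882), IL1R1 with IL1RAP (0.846) and IL1B with IL1R2 (0.662), and the most opposed pair was IL1R1 with IL18 (-0.356).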

How the data were processed

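Total RNA of 24 PBMC libraries (6 chickens, 4 groups) was sequenced by the authors from a stranded kit, trimmed with Skewer and aligned to GRCg6a with STAR 2.7.3. For the read counter and the release of the annotation, no source used here gives a name. The deposited tables hold read counts per gene and the authors' normalized signal, the counts divided by a size factor of DESeq2 per library, which removes depth but not gene length.

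Counts entered edgeR 4.0.16 (R 4.3.3, quasi-likelihood F-test, TMM, robust) for genes that had 2 or more reads summed over the libraries, with Benjamini-Hochberg adjustment over all genes tested. BS, BV and control entered 1 fit, conA and control another, and BS, BV and conA the last. For SE, the absolute log2 FC was divided by the root of F. Fits were tested on simulated data that held no differences between chickens, so that this cannot judge the block. DESeq2 1.42.0, all 24 libraries, RLE factors, filterByExpr, no filter, each chicken left out and sets of chickens were alternatives. Blocked fits within the sets were chosen after seeing the data. The study treated cells of each chicken in every group, and equal replicate numbers in the sample titles were taken to mark 1 chicken. The lowest correlation of deviations from the group means within a chicken was 0.386 for BS with control, 0.506 for BV with control and -0.034 for conA with control. Between different chickens the medians were -0.198, -0.267 and -0.091, and the highest values 0.567, 0.565 and 0.504. The highest values between chickens thus exceeded the lowest within a chicken.

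Members and lists were chosen with earlier results of these data known. Named genes are the 7 members, per list and comparison up to 4 genes with the largest absolute log2 FC at an adjusted p under 0.05, and the 3 genes most like each member. RefSeq (GRCg7b) served for neighbour order and matched 7 of 7 members.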

Additional observations from a re-analysis of the deposited data

Results flagged for a closer look

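In 6 of the 28 sets of 6 libraries (7 genes in 4 groups) the highest library stood apart from the other 5 by Dixon's test. Chance gives this in about 5% of independent sets of normally distributed values. The sets here share chickens and hold normalized counts without a log, so that this rate cannot be set against them. IL1B was 151.4 normalized counts in the BV library of chicken 1, with the next at 52.68, and 47.16 in the conA library of chicken 1, with the next at 13.68. IL1R1 was 2065 in the BV library of chicken 1, with the next at 592.4, and 231.6 in the conA library of chicken 1, with the next at 76.13. IL1R2 was 58.3 in the conA library of chicken 5, with the next at 29.03, and IL1RL1 was 90.83 in the control library of chicken 3, with the next at 29.59. The BV and conA libraries of chicken 1 thus stood apart in both IL1B and IL1R1.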

How the results depend on the processing

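The number of the 7 genes called depended mostly on the chicken as a block. After BS it was 0 without the block, 2 with it, 1 with DESeq2 and 2 with DESeq2 and the block. After BV it was 0 without the block, 2 with it and 2 with DESeq2 and the block. After conA it was 2 without the block and 1 with it. Over all 20266 genes DESeq2 called 12 after BS and 8 after BV, all of them higher, and 29 and 27 with the block. The 12 and 8 genes that the study listed include 1 lower gene after each strain, so that the genes are not all the same. Fits within sets of chickens follow, with the number called over all genes in brackets. Those with the block were chosen after seeing the data. With the block they called 2 after BS (62) and 2 after BV (23) in chickens 1 and 2. In chickens 3 to 6 the blocked fits called 2 (19) and 1 (11). For conA against the control the fits called 1 in chickens 1 and 2 (28), 1 in chickens 3 to 6 (179) and 1 in chickens 3 to 6 with the block (255). For conA against BS they called 1 in chickens 1 and 2 (70). For conA against BV they called 0 in chickens 1 and 2 (51), 4 in the same with the block (622) and 1 in chickens 3 to 6 (198). Without a filter on low counts 1 was called for conA against BV (176 over all genes). When 1 chicken was left out, with or without the block, the calls were 0 to 2 after BS, 0 to 2 after BV, 1 to 2 after conA, 1 to 4 for conA against BS and 1 to 4 for conA against BV.

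The sign of small log2 FC turned in some settings, and the cause was not tested. After BS, IL1R1 was -0.089 in chickens 3 to 6 (-0.15 with the block), IL1RAP was -0.0255 with the block, -0.0354 with DESeq2 and the block and -0.13 in chickens 3 to 6 with or without the block, and IL18R1 was 0.20 in chickens 1 and 2 with or without the block. After BV, IL1R1 was -0.14 in chickens 3 to 6 (-0.17 with the block) and IL1RAP 0.010. After conA, IL1R2 was -0.59 in chickens 1 and 2 (-0.55 with the block) and IL1RAP 0.29 in chickens 3 to 6 (0.27 with the block). Between BS and BV, IL1B was -0.21 (-0.18 with the block), IL18 0.0218 (0.0465) and IL18R1 0.13 (0.13) in chickens 1 and 2, IL1R2 was -0.0137 in chickens 3 to 6 with the block, and IL1RAP was -0.0145 with the block, -0.0194 with DESeq2 and the block and -0.14 (-0.13 with the block) in chickens 3 to 6. In chickens 3 to 6 IL1RAP was 0.42 (0.40 with the block) for conA against BS and 0.28 (0.29) for conA against BV. Without 1 chicken, the log2 FC after BS ranged from -0.11 to 0.0671 for IL1RAP, -0.18 to 0.89 for IL1RL1 and -0.19 to 0.0406 for IL18R1, and after BV from -0.047 to 0.0324 for IL1RAP. It ranged from -0.11 to 0.88 for IL1R2 after conA, from -0.77 to 0.0357 for IL1RAP between conA and BS, and between BS and BV from -0.11 to 0.54 for IL1B, -0.0805 to 0.0802 for IL1RAP and -0.36 to 0.0393 for IL18.

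IL1B, with 57 reads over the control libraries, and IL1R2, with 128, are limited by counting, and 1 library per chicken and group leaves no measure of technical error. The conA libraries of chickens 3 to 6 are numbered apart from the control libraries, and treatment and this numbering cannot be told apart in these chickens.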
